A study of Mus musculus and Rattus norvegicus with 26 samples.

Results

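The insulin and phosphoinositide 3-kinase (PI3 kinase) signalling genes were examined for intron sequence in 6 lists of intronic contigs. They are the receptor genes Insr and Igf1r, the adaptor gene Irs1, the PI3 kinase subunit genes Pik3r1, Pik3ca and Pik3cb, and the kinase genes Akt1 and Akt2. A gene was taken from a list when its symbol stood beside a contig, and 7 of these 8 genes were found, out of 13695 symbols in all lists together. They accounted for 71 contigs in 56 combinations of list and intron. Irs1 was the gene without a contig in any list.

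The lists come from a survey of cytoplasmic intron-sequence retaining transcripts, CIRTs for short, which are messages that still carry a piece of an intron outside the nucleus. Each list pools the libraries of a single group. There were 3 libraries of mouse dendrites, 3 of mouse somas, 2 of rat dendrites, 3 of rat somas, 6 of brown adipose tissue (BAT) cells and 9 of cardiomyocytes, 26 in all by the labels, so no value per library and no error between libraries could be computed, and no difference below has a replicate check. The labels of every sample name the list of its group, but for both non-neuronal groups the number of cells in the study's text is smaller than that of the labels. The neurons were cultured from hippocampi taken at embryonic day 18 from C57BL/6 mice and Sprague-Dawley rats. Each dendrite library pooled many dendrites that had been cut off by hand, and this dissection does not separate dendrites from axons. The somas were single cells that kept their nucleus, and so did the BAT cells and cardiomyocytes, so nuclear and cytoplasmic RNA cannot be told apart in these 3 kinds of sample. BAT cells were picked by their shape from interscapular tissue of CD-1 mice at embryonic day 17.5, and were single cells as well. The cardiomyocytes were single, flow sorted cells at embryonic day 14.5 from transgenic C57BL/6 animals that were hemizygous for the Fucci probe mAG-hGem (1/110), a fluorescent reporter of the cell cycle under the CMV promoter. RNA of all groups was amplified in 3 rounds by the aRNA procedure, which copies RNA linearly from a poly(T) primer that carries a T7 promoter.

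Insulin and insulin-like growth factor bind receptor tyrosine kinases, which phosphorylate adaptors such as Irs1. The adaptors recruit PI3 kinase, a pair of a regulatory and a catalytic subunit, and the lipid it makes brings Akt kinases to the membrane, where they are activated. In neurons the pathway is known for its part in survival, growth and protein synthesis at synapses, and in fat and heart muscle for its part in glucose uptake and growth.

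The read counts are raw, and each count belongs to an intron and is repeated on all of its contigs, so it was taken a single time per transcript and intron. Totals of listed intron reads ran from 1007530 in rat dendrites to 17858440 in BAT cells. Levels are therefore given as reads per 1000000 listed intron reads (RPM), with exact Poisson intervals at the 95% level that cover counting error only. In a pooled list, an intron present in more cells cannot be told apart from one with more reads in a single library. The study kept, for somas, BAT cells and cardiomyocytes, contigs of at most 400 nt to limit nuclear precursor RNA, while the deposited lists also hold longer ones, and levels here use all contigs unless the shorter ones are named. The lists leave out introns that hold a predicted gene or a poly(A) site, and a gene that is not listed is not a gene with a measured level of 0. As a check of the labels, the neuron markers were listed in 8 of 10 cases for mouse somas (10402 RPM in sum) and 5 of 10 for rat somas (3971 RPM). In mouse dendrites it was 7 of 10 (271 RPM) and in rat dendrites 3 of 10 (359 RPM), against 7 of 10 in BAT cells (627 RPM) and 3 of 10 in cardiomyocytes (409 RPM), so these markers did not set the dendrite lists apart from the non-neuronal ones, and Map2 was in no list. Brown adipocyte markers were listed in 8 of 10 cases for BAT cells (8850 RPM), without Ppargc1a and Elovl3, and cardiomyocyte markers in 8 of 10 cases for cardiomyocytes (27634 RPM), without Pln and Nkx2-5. The lists were not free of markers of other cells, with 2780 RPM of cardiomyocyte markers in BAT cells, including 26804 reads of Nkx2-5, and 519 RPM in mouse dendrites. Brown adipocyte markers came to 328 RPM in cardiomyocytes (4 of 10 listed), 212 in mouse dendrites (5 of 10) and at most 94.3 in mouse somas and both rat lists. Cidea was higher in cardiomyocytes (213 RPM) than in BAT cells (86.7). Fibroblast and endothelium markers came to 784 RPM in mouse somas (4 of 8 listed), 340 in rat dendrites (3 of 8), 288 in cardiomyocytes (2 of 8), 267 in mouse dendrites (6 of 8), 217 in BAT cells (8 of 8) and 0.955 in rat somas (1 of 8). Glia markers came to 206 RPM in rat dendrites (2 of 8) and at most 56.0 in the other lists, with none in cardiomyocytes. The part of other cells in the results below was not tested.

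The sequence of several contigs is shown first, because the same short piece of an intron came back in different cell types and because some of the pieces end at a run of adenines. All sequences are from the NCBIM37 (mm9) mouse genome, on the strand of the gene and from 5′ to 3′, and capitals mark tracts of at least 10 adenines. For Akt2 and Insr the stretch that contigs of several lists had in common is given, followed by the bases up to the tract where a tract lies just past its end.

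Intron 9 of Akt2 had a contig in all 4 mouse lists, and the piece at chr7:28420360-28420637 on the plus strand covers the stretch common to them and the tract at its end. Intron 16 of Insr had contigs in mouse somas, BAT cells and cardiomyocytes, and their common stretch with its tract lies at chr8:3162881-3163160 on the minus strand.
Akt2 intron 9: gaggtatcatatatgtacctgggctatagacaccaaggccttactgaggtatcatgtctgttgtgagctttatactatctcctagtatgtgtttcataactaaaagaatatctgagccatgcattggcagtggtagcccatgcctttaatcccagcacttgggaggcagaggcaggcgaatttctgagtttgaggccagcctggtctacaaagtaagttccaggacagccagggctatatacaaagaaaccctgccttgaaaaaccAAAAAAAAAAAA
Insr intron 16: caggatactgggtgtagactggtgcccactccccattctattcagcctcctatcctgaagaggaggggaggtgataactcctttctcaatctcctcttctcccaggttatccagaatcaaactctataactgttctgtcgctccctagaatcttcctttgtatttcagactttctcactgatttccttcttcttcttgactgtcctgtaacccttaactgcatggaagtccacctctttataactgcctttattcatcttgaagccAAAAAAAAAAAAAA

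In intron 1 of Insr a BAT contig lay inside a cardiomyocyte contig. The common piece, shown for chr8:3266290-3266589 on the minus strand, holds a purine-rich repeat in place of an unbroken tract of 10 adenines.
Insr intron 1: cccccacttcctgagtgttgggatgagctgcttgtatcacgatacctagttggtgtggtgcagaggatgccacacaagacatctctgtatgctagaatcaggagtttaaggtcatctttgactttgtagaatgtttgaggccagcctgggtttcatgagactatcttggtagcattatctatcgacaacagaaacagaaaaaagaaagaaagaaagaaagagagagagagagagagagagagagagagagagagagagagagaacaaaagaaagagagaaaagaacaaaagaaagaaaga

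The next pieces were seen in a single list each. They are the tract-bearing dendrite contig in intron 2 of Pik3r1 (chr13:102507320-102507617, minus strand), the 3′ part of the cardiomyocyte contig in intron 6 of Pik3ca (chr3:32341883-32342182, plus strand), whose tract runs past the end of the contig, and, without a tract of adenines, the most read dendrite contig of Igf1r in intron 11 (chr7:75339570-75339853, plus strand).
Pik3r1 intron 2: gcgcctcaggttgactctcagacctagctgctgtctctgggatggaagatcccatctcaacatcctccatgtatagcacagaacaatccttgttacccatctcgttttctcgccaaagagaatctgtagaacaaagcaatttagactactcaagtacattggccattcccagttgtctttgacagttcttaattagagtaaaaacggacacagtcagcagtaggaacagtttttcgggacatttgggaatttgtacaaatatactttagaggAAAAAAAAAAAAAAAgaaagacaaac
Pik3ca intron 6: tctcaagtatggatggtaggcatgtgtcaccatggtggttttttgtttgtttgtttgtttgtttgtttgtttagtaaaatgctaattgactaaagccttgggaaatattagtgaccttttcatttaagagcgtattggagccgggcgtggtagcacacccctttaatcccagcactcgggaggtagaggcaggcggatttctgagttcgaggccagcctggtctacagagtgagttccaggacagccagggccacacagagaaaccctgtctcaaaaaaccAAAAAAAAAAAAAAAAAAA
Igf1r intron 11: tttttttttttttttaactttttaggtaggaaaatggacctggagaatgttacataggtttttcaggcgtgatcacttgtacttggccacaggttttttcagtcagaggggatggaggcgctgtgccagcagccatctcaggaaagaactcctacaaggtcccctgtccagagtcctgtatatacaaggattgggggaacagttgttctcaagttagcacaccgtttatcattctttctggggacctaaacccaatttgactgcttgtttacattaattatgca

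The pieces of Akt2 intron 9 and Pik3ca intron 6 share a run of 20 letters, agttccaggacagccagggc, which belongs to the body of the B1 family of short interspersed repeats of the mouse genome. This run was searched on both strands of every contig of the mouse lists. Among the 65 mouse contigs of the signalling genes it was in those that had given it, the 4 contigs of Akt2 intron 9 and the contig of Pik3ca intron 6, and in no other, so its count there was fixed by the choice of the run. Over all 97721 mouse contigs it was on the strand of the gene in 2.40% and on the other strand in 2.20%. A match in letters is a description, and repeat annotation was not used here.

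Of the 8 genes, 5 were listed in mouse dendrites, where 43.9% of all annotated protein-coding genes with an intron were listed. Mouse somas had 4 of the 8, with 30.1% of all genes. BAT cells had 6 of 8, with 52.0% of all genes, and cardiomyocytes 5 of 8, with 31.6% of all genes. The shares of the 8 genes, 62.5%, 50.0%, 75.0% and 62.5%, were above those of all genes in each mouse list, but they rest on few genes, and neither intron length nor expression was matched. The share of 84 other genes of the pathway was of the same order, at 63.1%, 52.4%, 76.2% and 54.8%. In rat, 2 of the genes were listed in dendrites (Insr and Igf1r) and 2 in somas (Akt1 and Akt2), with no gene in both lists, so each rat list held 2 of the 4 genes found in either. Of all 5712 symbols in either rat list, 37.9% were in both. Among all symbols found in either rat list, 78.5% were listed in dendrites and 59.4% in somas. In at least 1 mouse list there were 6 of the 8 genes, with 63.3% of all annotated genes. In all 4 mouse lists there were 3 of these 6, Insr, Pik3r1 and Akt2, with 24.6% of the 12467 symbols of any mouse list, of which mouse dendrites listed 69.0%, mouse somas 47.3%, BAT cells 82.0% and cardiomyocytes 49.8%.

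**Figure D1:**
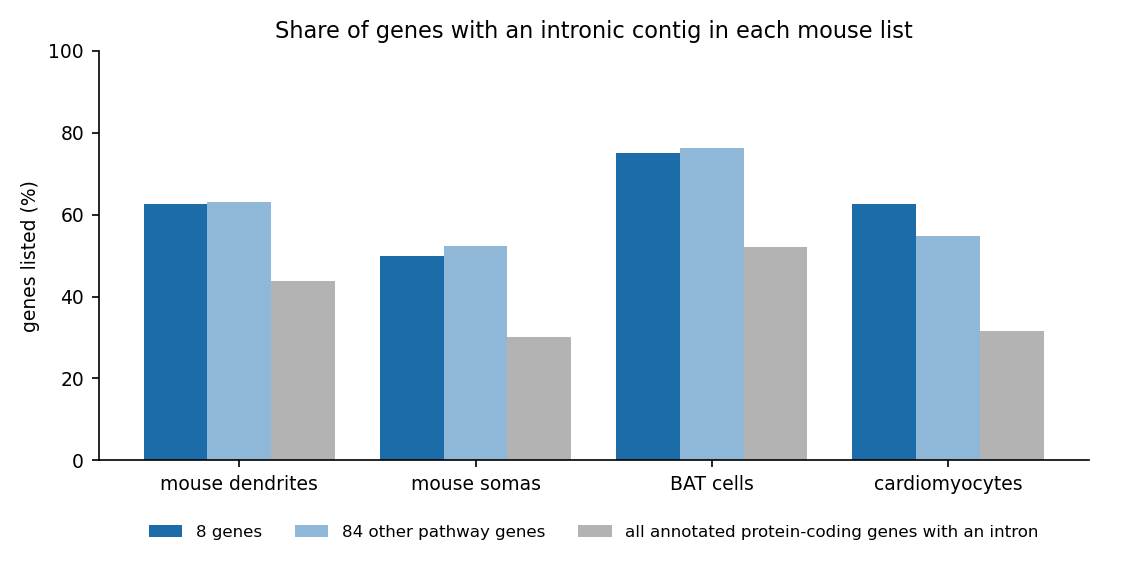
Share of genes with at least 1 intronic contig in each mouse list, in percent, for the 8 signalling genes, for 84 other pathway genes and for all annotated protein-coding genes with an intron. The 8 genes stood at 50.0% to 75.0% and all genes at 30.1% to 52.0%.

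Over the 8 genes together, the reads came to 229 RPM in mouse dendrites (interval 213 to 247) and 163 in mouse somas (145 to 183), and the dendrite level was 1.40 times that of somas (1.23 to 1.61). In rat the order was the opposite, with 175 RPM in dendrites (150 to 202) and 242 in somas (221 to 264), a ratio of dendrites to somas of 0.723 (0.606 to 0.860). Cardiomyocytes had 414 RPM (403 to 426) and BAT cells 142 (136 to 148), so the cardiomyocyte level was 2.92 times that of BAT cells (2.78 to 3.06). Insr alone gave 3852 of the 5053 reads in cardiomyocytes and 1093 of the 2534 in BAT cells, so this ratio rests largely on that gene. The rat sums compare different genes, since none of the 8 was in both rat lists, and the rat ratio was 0.110 with contigs of at most 400 nt and 0.143 without the most read intron of each list. The study set the limit of 400 nt for somas but not for dendrites. With it both ratios of dendrites to somas turned, to 0.672 in mouse and 3.74 in rat. In mouse somas the limit removed no reads of the 8 genes, but the total of listed intron reads fell from 1855447 to 887610. The turn in mouse is thus one of scale, and it shifts the single mouse genes given below alike. In rat somas Akt2 also fell from 502 to 25 reads. The order of dendrites and somas therefore depends on which contigs the totals hold. The sums rest on 15 introns in mouse dendrites, 5 in mouse somas, 2 in rat dendrites, 3 in rat somas, 17 in BAT cells and 14 in cardiomyocytes, and the genes behind them differed widely.

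Insr, which encodes the insulin receptor (chr8:3150922-3279617 in mouse, minus strand), was listed in 5 of the 6 lists. It had 3852 reads in cardiomyocytes, 174 in rat dendrites, 1093 in BAT cells, 80 in mouse somas and 45 in mouse dendrites. In RPM these are 316 (306 to 326), 173 (148 to 200), 61.2 (57.6 to 64.9), 43.1 (34.2 to 53.7) and 14.6 (10.6 to 19.5). No neighbours in this order had overlapping intervals, so the order of the pooled lists is beyond counting error, and rat somas did not list the gene. The order did not hold for contigs of at most 400 nt, which left Insr 356 of its cardiomyocyte reads, 79 of its BAT reads and none in rat dendrites. The levels were then 90.1 RPM in mouse somas (71.5 to 112), 76.3 in cardiomyocytes (68.6 to 84.6), 25.6 in mouse dendrites (18.7 to 34.3) and 10.3 in BAT cells (8.13 to 12.8), the first and second overlapping. In cardiomyocytes 87.8% of the listed genes had fewer reads than Insr, and in mouse dendrites 40.8%.

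The cardiomyocyte level of Insr was 5.16 times the BAT level, and among 5442 genes listed in both 28.3% were at least 4 times higher in cardiomyocytes. As a ratio of BAT cells to cardiomyocytes this is 0.194 (0.181 to 0.207), and without the most read intron of the 8 genes in each list, which is an Insr intron in both, it was 0.0273. In mouse dendrites Insr stood at 0.338 of the soma level (0.229 to 0.493), which is under the fold of 4 used here, and at 0.162 with the limit of 400 nt in somas alone.

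The introns behind these values differed between the cells. The contigs of mouse dendrites lay in intron 1 alone, in 3 places, with 45 reads. The soma contig lay in intron 16 with 80 reads. In BAT cells 6 introns were listed, and 1014 of the 1093 reads, 92.8%, came from a contig of 1085 nt in intron 9 (chr8:3186749-3187833), which no other mouse list held. Cardiomyocytes had 1875 reads in intron 16, 1618 in intron 13, 348 over the 4 contigs of intron 1, 8 in intron 3 and 3 in intron 15. The rat dendrite contig, of 468 nt, lay in the intron numbered 14 (chr12:3071273-3071740 in rn4). Of 20 annotated mouse introns 7 were listed, and the longest, intron 2 with 46682 nt, was not.

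Igf1r, the gene of the insulin-like growth factor receptor (chr7:75097713-75371326, plus strand), had its highest level in mouse dendrites. There it had 177 reads in 5 introns, or 57.3 RPM (49.2 to 66.4), and the 5 introns held 68, 53, 46, 8 and 2 reads, numbers 11, 4, 5, 10 and 13. Its reads were thus spread over more introns than those of any other of the 8 genes in that list. BAT cells had 116 reads in 3 introns, 6.50 RPM (5.37 to 7.79), of which 83 came from a contig that covered 78.4% of the 555 nt of intron 14. Cardiomyocytes had 38 reads in intron 5, 3.11 RPM (2.20 to 4.27), and rat dendrites 2 reads in a single intron, 1.99 RPM (0.240 to 7.17).

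Neither soma list held Igf1r. Its ratio of BAT cells to cardiomyocytes was 2.09 (1.43 to 3.09), but 0.527 when contigs of at most 400 nt were kept, which leaves out the 435-nt contig of intron 14. Introns 1 and 2, the longest of the gene with 50857 and 160637 nt, had no contig in any mouse list, and the listed mouse introns were all between numbers 4 and 15 of 20.

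**Figure D2:**
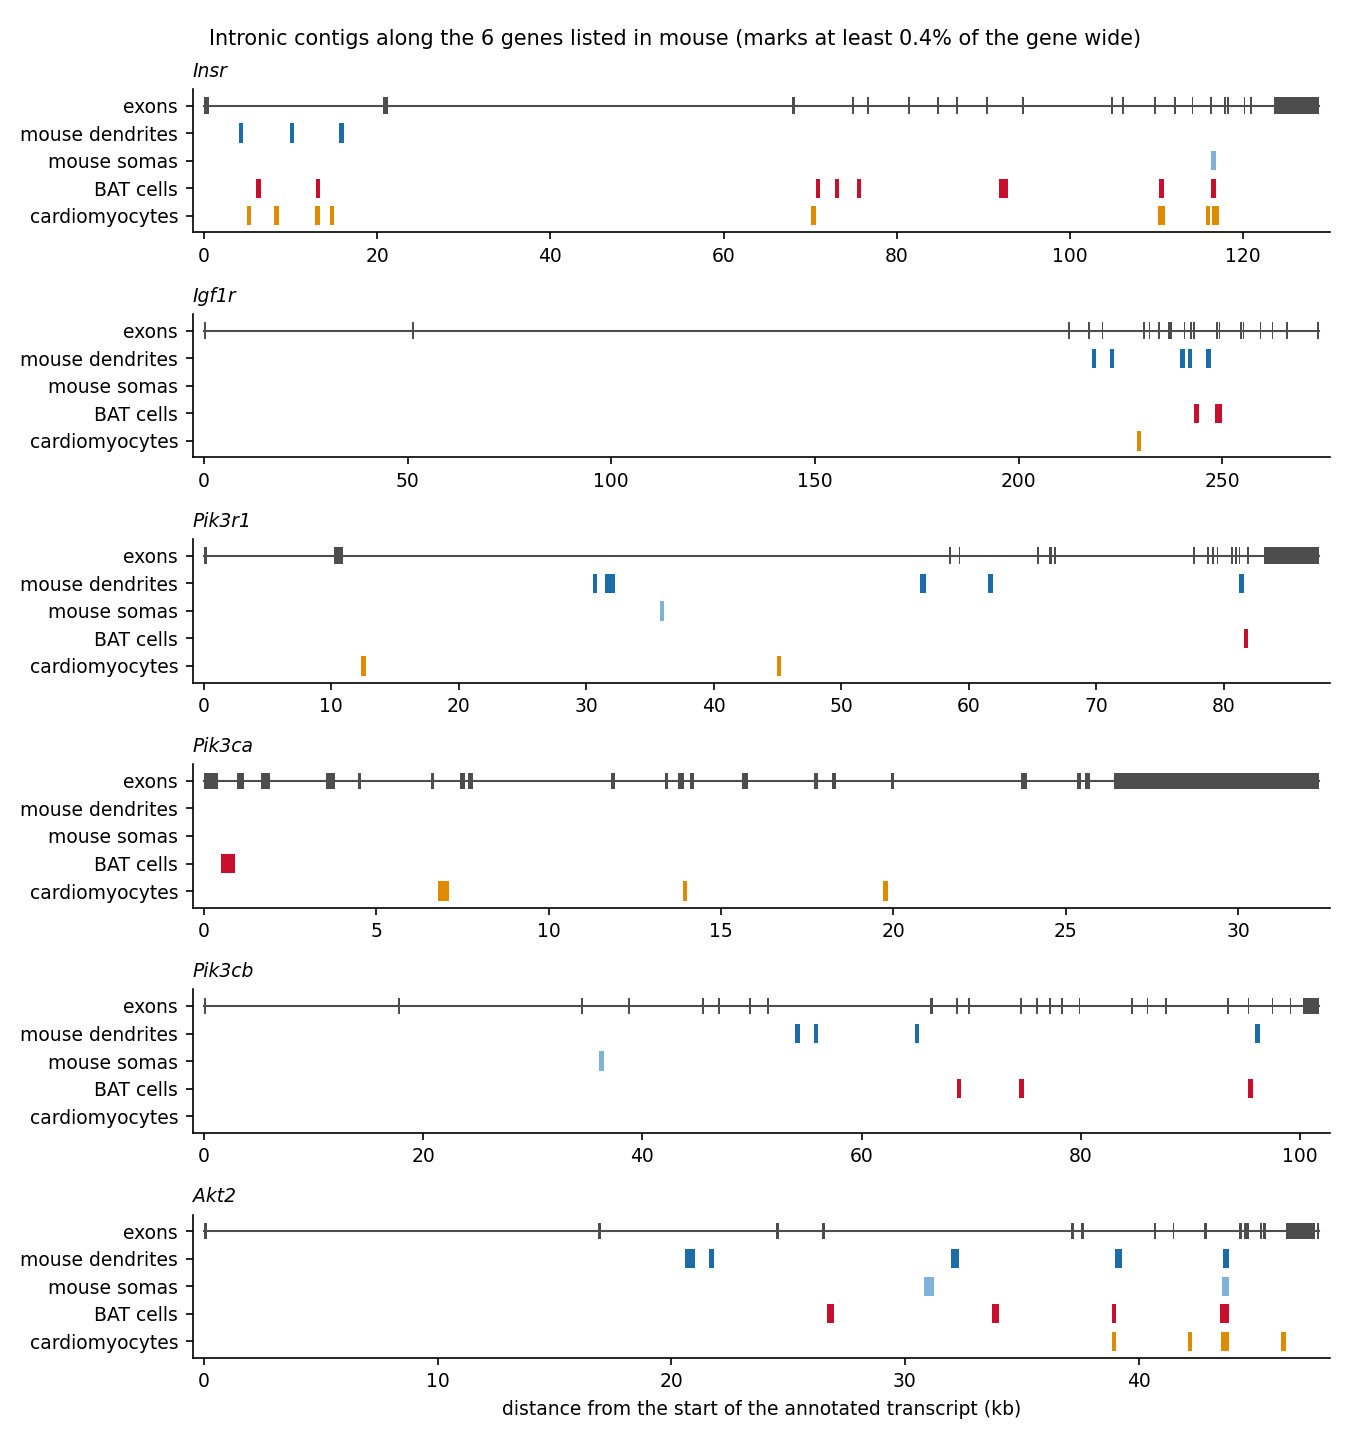
Contigs of the 4 mouse lists along the 6 genes that mouse lists hold, by distance from the start of the annotated transcript in kb, with exons in grey. The longest introns of Igf1r and Insr are empty, and contigs of different lists line up near the 3′ end of Akt2 and Insr.

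Irs1, which encodes the main adaptor of both receptors (chr1:82229676-82287991, minus strand), has a single intron of 49172 nt in the annotation, and no list held it. Its relative Irs2 was listed in mouse dendrites (69 reads), BAT cells (1494) and cardiomyocytes (4662).

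Pik3r1, the gene of the regulatory subunit p85-alpha (chr13:102450716-102538172, minus strand), was listed in the 4 mouse lists. It had 159 reads in mouse dendrites, 51.5 RPM (43.8 to 60.2), and 4 in mouse somas, 2.16 RPM (0.587 to 5.52). Cardiomyocytes had 91 reads, 7.46 RPM (6.01 to 9.16), and BAT cells 5, or 0.280 RPM (0.0909 to 0.653). Dendrites were thus highest and cardiomyocytes next, while the intervals of mouse somas and BAT cells overlapped.

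The dendrite level of Pik3r1 was 23.9 times the soma level (9.15 to 88.8), and 33.2% of the 4739 genes in both lists were at least 4 times higher in dendrites. This difference rests on 1 intron, since intron 2 held 155 of the 159 dendrite reads and all 4 soma reads. When the most read intron of the 8 genes was left out of each list, which is intron 2 of Pik3r1 in dendrites but intron 3 of Pik3cb in somas, the ratio of dendrites to somas was 0.601, and with the limit of 400 nt in somas alone it was 11.4. Between BAT cells and cardiomyocytes the ratio was 0.0375 (0.0119 to 0.0909), the cardiomyocyte level being 26.6 times higher. The 3 lists with contigs in intron 2, of 47583 nt, had them in different places. In intron 14, of 594 nt, the contigs of dendrites (2 reads) and BAT cells (5 reads) did not meet either, and the annotated gene Gm11016 spans this intron on the opposite strand without an exon under the contigs.

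Both catalytic subunit genes were listed in BAT cells, and otherwise in different mouse lists. Pik3ca, which encodes p110-alpha (chr3:32335073-32367408, plus strand), was listed in BAT cells with 38 reads, 2.13 RPM (1.51 to 2.92), and in cardiomyocytes with 95 reads, 7.79 RPM (6.30 to 9.52), and in no neuronal list. The 38 BAT reads came from a contig over 73.9% of intron 1, and 85 of the cardiomyocyte reads from intron 6, with 8 in intron 15 and 2 in intron 11. The ratio of BAT cells to cardiomyocytes was 0.273 (0.182 to 0.402), just short of a fold of 4, and the BAT contig, of 414 nt, drops out with the limit of 400 nt.

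Pik3cb, which encodes p110-beta (chr9:98938821-99040506, minus strand), was listed in mouse dendrites with 228 reads, 73.9 RPM (64.6 to 84.1), and in mouse somas with 122, or 65.8 RPM (54.6 to 78.5). These intervals overlap, and the ratio of dendrites to somas was 1.12 (0.898 to 1.41). It was 0.945 with contigs of at most 400 nt in both and 0.537 with that limit in somas alone. Neither setting changed the reads of Pik3cb, only the list totals. Although the levels were close, the reads came from different introns, 21 (128 reads) and 8 (100 reads) in dendrites and 3 in somas. BAT cells had 56 reads over introns 10, 12 and 21, 3.14 RPM (2.37 to 4.07), cardiomyocytes had no contig, and in intron 21 the BAT contig lay upstream of the dendrite contig without touching it.

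Of the kinases, Akt1 was listed in rat somas alone, with 4 reads in the intron numbered 10, or 1.91 RPM (0.520 to 4.89). None of the 13 annotated introns of the mouse gene (chr12:113892032-113912487, minus strand) was listed. Akt2 (chr7:28376765-28424469 in mouse, plus strand) was listed in 5 of the 6 lists, in all but rat dendrites. It had 502 reads in rat somas, 977 in cardiomyocytes, 1226 in BAT cells, 97 in mouse somas and 99 in mouse dendrites.

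In RPM these are 240 (219 to 262), 80.1 (75.1 to 85.3), 68.7 (64.9 to 72.6), 52.3 (42.4 to 63.8) and 32.1 (26.1 to 39.0) for Akt2. The 4 mouse lists thus lay closer together for Akt2 than for Insr. With contigs of at most 400 nt the order of the 4 mouse lists stayed the same, while rat somas moved from first to last. The levels were then 209 RPM in cardiomyocytes (196 to 223), 113 in BAT cells (106 to 121) and 109 in mouse somas (88.6 to 133). Mouse dendrites had 56.4 (45.8 to 68.7) and rat somas 40.3 (26.1 to 59.5). The intervals of BAT cells and mouse somas overlapped, as did those of mouse dendrites and rat somas. The ratio of dendrites to somas in mouse was 0.614 (0.459 to 0.820) and that of BAT cells to cardiomyocytes 0.857 (0.788 to 0.933), both under a fold of 4. With contigs of at most 400 nt the latter was 0.540, and with that limit in somas alone the former was 0.294. In rat somas 477 of the 502 reads came from a contig of 861 nt in the intron numbered 3 (chr1:82703726-82704586 in rn4).

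Of the mouse Akt2 introns, 6 of 14 were listed, the largest share of the 8 genes (42.9%). Intron 4, of 10517 nt, held 867 BAT reads, 85 soma reads and 28 dendrite reads, in contigs that did not overlap. Intron 9, of 1354 nt, held 939 of the 977 cardiomyocyte reads and 357 of the BAT reads, but 12 reads each in dendrites and somas. Intron 6, of 2990 nt, held 47 dendrite reads, 2 BAT reads and 1 cardiomyocyte read. The high levels of Akt2 in BAT cells and cardiomyocytes therefore came mostly from different introns.

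**Figure D3:**
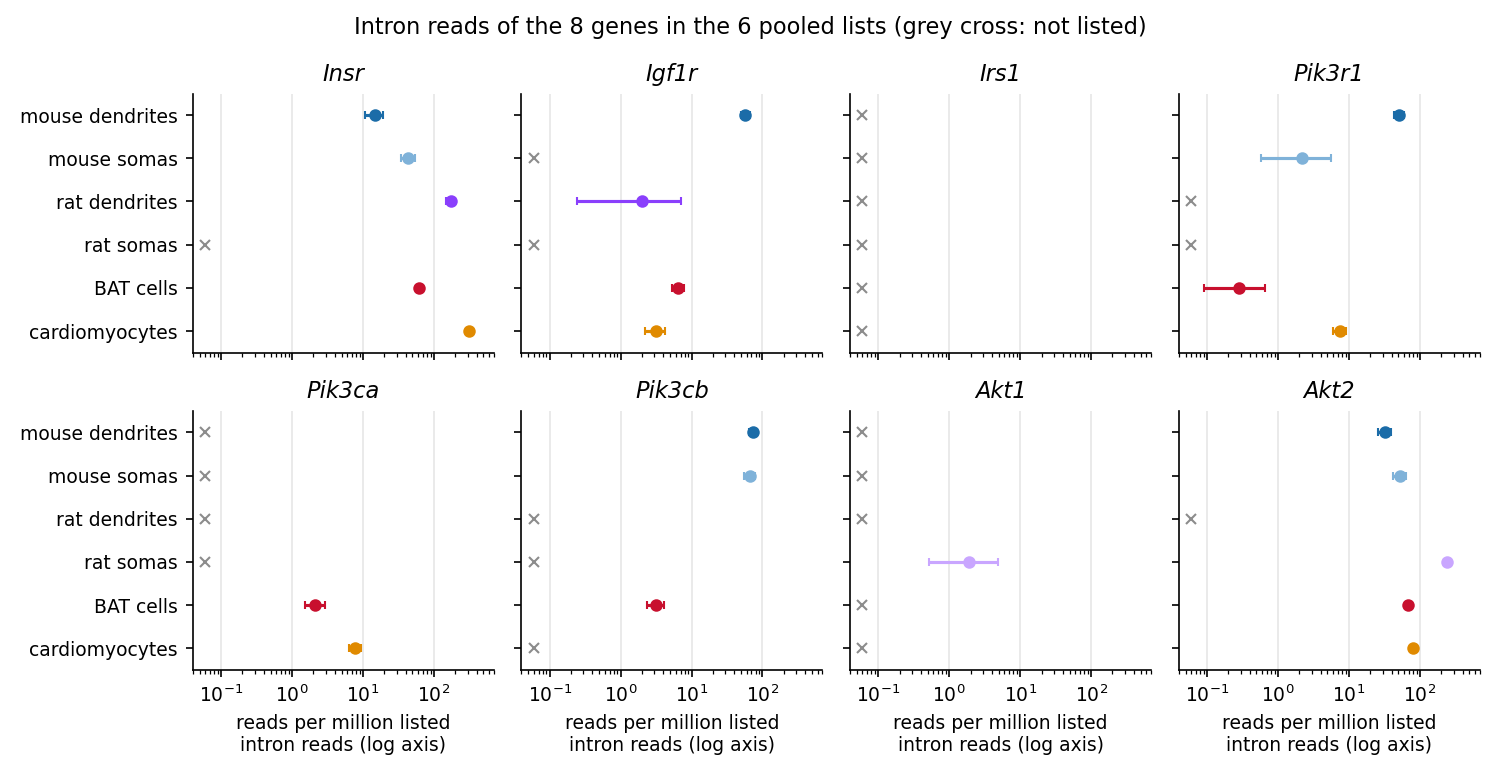
RPM (log axis) of each of the 8 genes in the 6 pooled lists. Points are pooled lists, bars are exact Poisson intervals for counting error, and grey crosses mark lists without a contig. Insr spans 14.6 to 316 RPM and Akt2 32.1 to 240.

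Levels were compared between genes as RPM per kb of annotated intron. On this scale the highest level in mouse dendrites was that of Pik3cb (0.762), followed by Akt2 (0.715), Pik3r1 (0.640), Igf1r (0.213) and Insr (0.122). The counting intervals of Pik3cb, Akt2 and Pik3r1 overlap on this scale, so the order among them is within counting error. In mouse somas Akt2 (1.17) came before Pik3cb (0.678), Insr (0.361) and Pik3r1 (0.0268). Akt2 also led in BAT cells (1.53, with Insr at 0.513 and the other listed genes at most at 0.0909), while in cardiomyocytes Insr (2.65) was above Akt2 (1.79) and Pik3ca (0.332). With contigs of at most 400 nt the cardiomyocyte order turned, to Akt2 (4.67), Pik3ca (0.869) and Insr (0.639).

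The reads per intron covered a wide range within each list. In cardiomyocytes the 14 listed introns of these genes had between 1 and 1875 reads with a median of 35.0, where the median over all listed introns was 53.0. In BAT cells the median was 22.0 over 17 introns against 29.0 for all introns, and in mouse dendrites 45.0 over 15 introns against 24.0. The other medians were 80.0 over 5 introns against 22.0 in mouse somas and 88.0 over 2 against 14.0 in rat dendrites, while the 3 introns of rat somas had 477, 25 and 4 reads with 24.0 as the median of the list. These medians rest on few introns, and in rat somas differ by 1 read. The most read introns were of Pik3r1 in mouse dendrites (155 reads) and Pik3cb in mouse somas (122), and of Insr or Akt2 in the other lists.

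**Figure D4:**
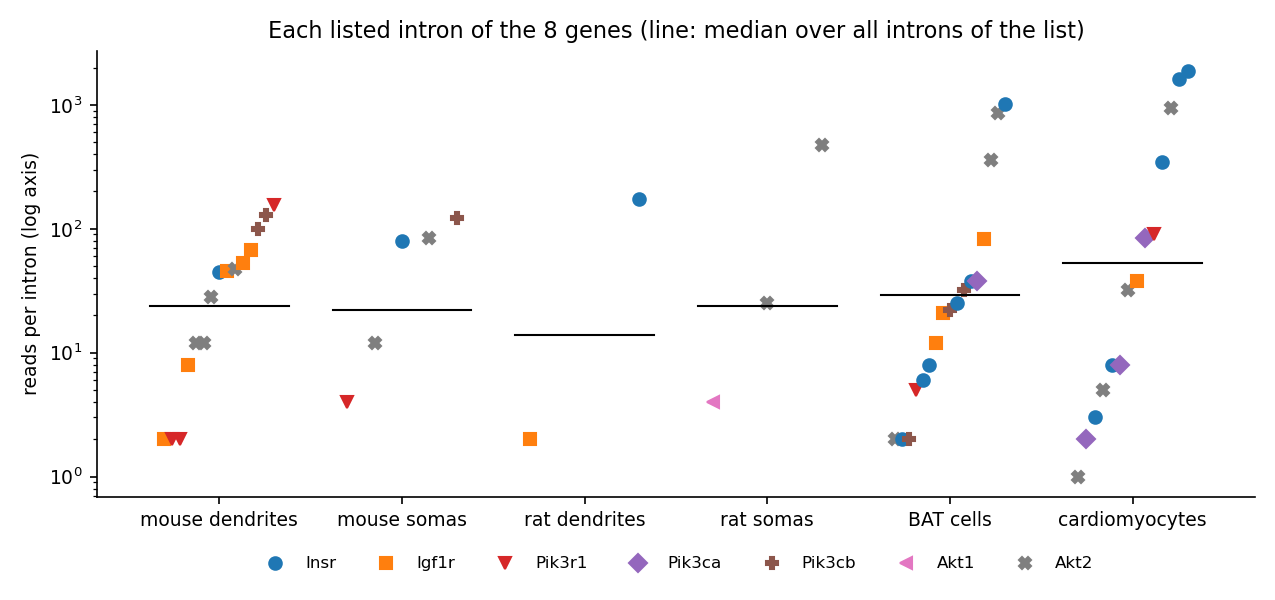
Reads of each listed intron of the 8 genes (log axis) by list, with the gene shown by colour and shape. Horizontal lines are medians over all introns of a list, from 14.0 in rat dendrites to 53.0 in cardiomyocytes, and the points reach 1875 reads for intron 16 of Insr.

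Of 125 annotated introns of the 8 mouse genes, 32 were listed in at least 1 mouse list (25.6%), near the 24.8% of 185129 introns of all annotated protein-coding genes. Introns under 500 nt were seldom listed (1 of 28), while 6 of 17 between 500 and 1000 nt, 15 of 56 between 1000 and 5000 nt and 10 of 24 longer introns were. Over all genes the shares in these classes were 8.61%, 15.7%, 32.3% and 41.5%. The contigs themselves were short, with a median of 254 nt over all lists and a range of 53 to 1085 nt, and 13 of the 71 were longer than 400 nt. In mouse they covered a median of 4.90% of their intron, against 6.37% over the 95702 mouse contigs that matched an annotated intron, and had a GC content of 43.6% against 41.2%. All 65 mouse contigs lay inside the intron of the listed number of an annotated transcript and overlapped no annotated exon, and 6 of them came within 1 nt of an exon (9.23%, against 21.3% of the matched contigs).

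The same intron was found in several cell types in 12 of the 32 cases (37.5%, against 39.6% of all listed introns). In 5 of these 12 the contigs of different lists shared bases (41.7%), where the figure over all 18373 such introns was 64.5%, and 8 of 12 had contigs within 500 nt of each other, against 76.3%. The 5 introns are introns 6 and 9 of Akt2 and introns 1, 13 and 16 of Insr. Contigs of the other 7, which include the long introns 2 of Pik3r1 and 4 of Akt2, lay apart. Sharing of bases was more common in short introns over all genes, at 85.5% under 2000 nt and 53.4% at 10000 nt and over.

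Akt2 intron 9 was the intron with contigs in all 4 mouse lists, and all 6 pairs of lists overlapped there. The stretch common to them has 262 nt (chr7:28420360-28420621). Over all genes, 1723 introns were in all 4 mouse lists, and in 488 of them (28.3%) all pairs overlapped. The contigs began between 539 and 656 nt from the upstream exon, and their 3′ ends lay close together, from 4 nt short of a tract of 12 adenines in somas to 27 nt into and past it, counted from its first base, in BAT cells and cardiomyocytes. The reads at this place differed widely all the same, from 12 in dendrites and in somas to 939 in cardiomyocytes.

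Insr intron 16 showed a like arrangement in 3 lists. The soma contig of 298 nt ended 1 nt before a tract of 14 adenines and the BAT contig of 254 nt ended 12 nt before it. The cardiomyocyte contig, of 806 nt, began 1 nt from the upstream exon and ran past the tract. It had 1875 reads, against 80 in somas and 6 in BAT cells. In introns 13 and 1 of Insr the BAT contigs, of 275 and 305 nt, lay wholly inside cardiomyocyte contigs of 714 and 399 nt. The introns they came from had 8 and 25 reads in BAT cells but 1618 and 348 in cardiomyocytes. In Akt2 intron 6 the 3 contigs had 17 bases in common.

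**Figure D5:**
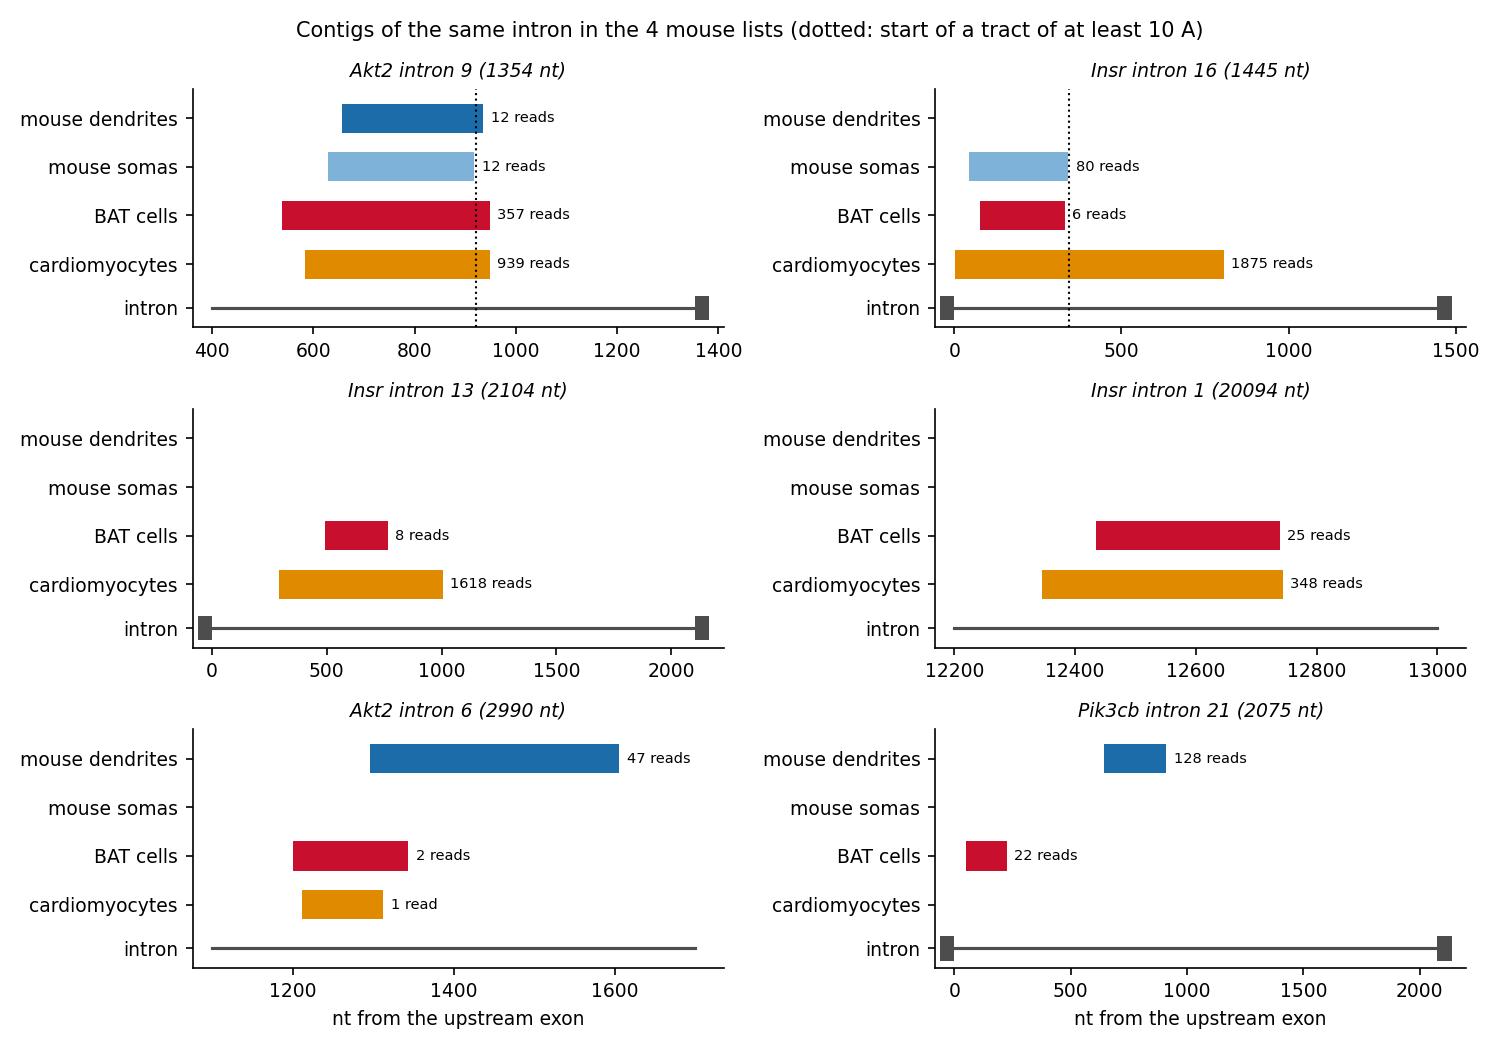
Contigs of the 4 mouse lists in 6 introns, by distance in nt from the upstream exon, with the reads of the intron in each list beside the contig; for Insr intron 1 the reads cover all contigs of the intron and 1 of its places is shown. Dotted lines mark the start of tracts of at least 10 adenines. In Akt2 intron 9 and Insr intron 16 the contigs of different lists end at or cross the same tract, and in Pik3cb intron 21 they lie apart.

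Tracts were counted because the amplification starts from a poly(T) primer. A tract of at least 10 adenines lay within 300 nt downstream of 11 of the 65 mouse contigs of the 8 genes (16.9%, Wilson interval 9.72 to 27.8), and of 9.40% of all mouse contigs. Upstream the figures were 1.54% and 2.60%. Tracts of thymines, which are adenines on the other strand, lay within 300 nt upstream of 10 of the 65 contigs (15.4%) and of 9807 of the 97721 mouse contigs, so tracts were about as common there as those of adenines downstream. The libraries did not keep the strand of the RNA, so the strand of a contig is that of its gene, and transcripts of either strand cannot be told apart. With the inside of the contig included, 19 contigs had a tract (29.2%), against 18.6% of all. The lower end of the downstream interval lies just above the share of all contigs, but contigs of different lists that stop at the same tract, as in Insr intron 16, were counted each, so the interval is too narrow. The order also depended on the length asked of a tract: at 8 adenines the downstream shares were 16.9% and 14.1%, and at 6 adenines the 8 genes were lower, at 23.1% against 28.2%.

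More contigs had a tract of adenines, on the strand of the gene, near their 3′ end than near their 5′ end. The mirror case, thymines near the 5′ end, was not counted, so the contrast below covers adenines only. In 14 of the 65 contigs (21.5%) a tract began or ended within 50 nt of the 3′ end, and in 1 (1.54%) within 50 nt of the 5′ end. Over all 97721 mouse contigs these shares were 12.8% and 0.965%. The 14 contigs lay in 8 introns, with 11 different tracts within that distance, and some of the contigs ended short of their tract, by up to 35 nt in Insr intron 1. Besides those of Akt2 intron 9 and Insr intron 16 they include the soma contig in Akt2 intron 4 (10 nt before a tract of 12 adenines), the cardiomyocyte contig in Igf1r intron 5 (2 nt before a tract of 16) and the BAT contig in Igf1r intron 13 (5 nt before a tract of 14). By list they were 2 of 22 contigs in mouse dendrites, 3 of 5 in somas, 4 of 20 in BAT cells and 5 of 18 in cardiomyocytes, where the shares over all contigs of the lists were 12.1%, 23.1%, 9.17% and 15.5%.

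The most read contigs of the genes were not all of this kind. The contigs in Insr introns 9 and 13, with 1014 and 1618 reads, had no tract of adenines inside or within 300 nt downstream. Nor had the BAT contigs in Akt2 intron 4 (867 reads) or the dendrite contigs of Pik3cb and Igf1r. Some of these Igf1r contigs lay at thymines, which are adenines on the other strand. Within 300 nt upstream there was a tract of 20 thymines for intron 4 and of 10 for intron 10. The contig in intron 11 opens with a run of thymines. Thymine tracts inside contigs were not counted. How much of each level comes from priming at such tracts was not tested.

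Among the 84 other genes of the pathway, 76 were in at least 1 list and 5 in all 6: Grb14, which encodes an adaptor that inhibits the insulin receptor, the class II PI3 kinase genes Pik3c2a and Pik3c2b, the TOR kinase gene Mtor and the kinase gene Gsk3b, a target of Akt. This is 6.58% of the 76, against 6.24% of all 13695 symbols, and none of the 8 genes was in all lists. By role, and in the order mouse dendrites, mouse somas, BAT cells and cardiomyocytes, ligands were listed in 1, 1, 1 and 0 of 4 cases, receptors and their modifiers in 4, 3, 6 and 6 of 8, adaptors in 9, 6, 10 and 7 of 13 and PI3 kinase subunits in 10, 6, 10 and 5 of 13. Lipid phosphatases were listed in 5, 5, 6 and 4 of 7 cases, kinases and Akt regulators in 9, 8, 10 and 7 of 12, TOR complexes and regulators in 6, 8, 10 and 8 of 11, and targets in 9, 7, 11 and 9 of 16. The shares of all annotated genes in these lists, as above, were 43.9%, 30.1%, 52.0% and 31.6%. In rat 38 of the 84 were in either list, 30 of them in dendrites and 21 in somas, where 78.5% and 59.4% of all rat symbols were.

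Among the most read of the other pathway genes, those named here had more reads than any of the 8 genes in the same list. The most read in mouse dendrites were Phlpp1 (2492 reads), a phosphatase gene acting on Akt, and Inpp4b (2167), a lipid phosphatase gene, where the most read of the 8 genes, Pik3cb, had 228. In mouse somas they were Phlpp1 (9025) and Mtor (1529). In rat they were Pdpk1 (1862), the kinase that phosphorylates Akt, and Inpp5d (874) in dendrites, and Inpp4a (2605) and Prkcz (989) in somas. In BAT cells Grb14 had 14852 reads, where Akt2 had 1226. In cardiomyocytes Tbc1d4, which encodes an Akt target in glucose transport, had 46127, where Insr had 3852.

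Of the 84 genes, 59 were in the mouse dendrite or the mouse soma list and 25 in neither. Of the 59, 38 were in both, 15 in dendrites alone and 6 in somas alone. Of all 9763 genes in either list, 48.5% were in both, 39.6% in dendrites alone and 11.8% in somas alone. The part in both was thus larger for the pathway genes, with neither intron length nor expression matched. Of the 38, 15 were at least 4 times higher in dendrites (39.5%, against 33.2% of all genes in both lists) and 11 in somas (28.9%, against 24.9%). Of 42 in both non-neuronal lists, 16 were at least 4 times higher in BAT cells (38.1%, against 34.3%) and 13 in cardiomyocytes (31.0%, against 28.3%). These shares of genes at least 4 times higher were near those of all genes. Of the 8 genes, 4 were in both mouse neuronal lists, with 1 (Pik3r1) at least 4 times higher in dendrites, where 33.2% of all genes were, and 0 in somas, where 24.9% were. There were 5 in both non-neuronal lists, with 2 (Insr and Pik3r1) at least 4 times higher in cardiomyocytes, where 28.3% of all genes were, and 0 in BAT cells, where 34.3% were. Comparisons of 4 and 5 genes are too few to be read against these shares. Of 2166 genes in both rat lists, 35.7% were at least 4 times higher in dendrites and 24.6% in somas, and none of the 8 could be compared there.

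Genes of like pattern were found for the members in 4 or more lists, as those with the smallest mean absolute difference of log2 levels over the 6 lists, with 1 RPM added and unlisted genes set at 0, among 4627 symbols in at least 4 lists. Nearest to Insr were Dixdc1 (0.55) and Dbt (0.65). For Igf1r Cops7b was near (0.36), for Pik3r1 Sh3rf2 (0.21) and Thumpd2 (0.22) were nearest, and for Akt2 Ebag9 (0.53) and Aifm1 (0.70). The likeness was closer for Igf1r and Pik3r1, which were low or not listed in several lists, than for Insr and Akt2. The 6 lists share no library.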

How the data were processed

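Intron reads of the insulin and PI3 kinase signalling genes were taken from 6 lists, 1 per group of the labels, each pooled by the authors. The deposited read counts are raw counts per RefSeq transcript and intron. The authors aligned 50 nt paired reads to mm9 or rn4 with the RUM pipeline, kept unique intronic reads, screened introns against gene predictions and known poly(A) sites, and joined reads up to 500 nt apart into contigs. Trimming of poly(A) from the reads and the requirement of unique mapping can shift contig ends and lower counts in repeats.

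The first base of each contig was taken as the listed start plus 1. Counts were summed by symbol over introns and divided by the total of the list. Poisson intervals are exact, and PCR reads are not independent molecules. Mouse contigs were matched to GENCODE introns, 62 on unplaced sequence being left out. Python 3.11.15, pandas 2.3.3, numpy 2.4.6, scipy 1.17.1, pysam 0.24.0 and matplotlib 3.10.9 were used, and the functions were tested on simulated data. No test between groups was possible, so a fold of at least 4 was called.

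The members, the gene lists and the rules were chosen with earlier results of these data known. Named were all 8 genes, the pathway genes in all 6 lists, the 2 most read per list, and the 2 nearest genes of each member in at least 4 lists. Overlap between lists, tracts at contig ends, the shared run of letters, Irs2 and the intron figures were chosen after the values were seen. Alternatives were contigs of at most 400 nt, the same in all but the dendrite lists (chosen after seeing the data), minimums of 4, 32 and 256 reads, totals without the 100 most read introns, reads per genomic intron, leaving out the most read intron, and tracts of 6 or 8 adenines or within 1000 nt. Rat sequence was not analysed here, and a few genes and sequences that these rules name are not reported here.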

Additional observations from a re-analysis of the deposited data

How the results depend on the processing

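No library could be left out, because each list pools its libraries. No paired analysis was possible because no result comes from a test and the pooled columns carry no replicate numbers. A minimum of 4 reads and counting reads per genomic intron left the levels of the 8 genes and their ratios within counting error, but rat dendrites then listed 1 gene at a minimum of 4 or 32 reads or with contigs of at most 400 nt, and rat somas 1 at 32 reads. At the highest read minimum tried 1 gene was left in rat somas, 0 genes in mouse dendrites, mouse somas and rat dendrites, and 2 each in BAT cells and cardiomyocytes. In the order mouse dendrites, mouse somas, rat dendrites, rat somas, BAT cells and cardiomyocytes, the RPM of the 8 genes were 399, 341, 5.12, 46.7, 135 and 334 with contigs of at most 400 nt, 284, 237, 288, 408, 182 and 547 against totals without the 100 most read introns, and 179, 97.6, 1.99, 13.8, 85.1 and 260 without the most read intron of these genes. The ratio of dendrites to somas in mouse was 1.17, 1.20 and 1.84 under these 3 settings, and in rat 0.110 with contigs of at most 400 nt and 0.143 without the most read intron, while that of BAT cells to cardiomyocytes was 0.406 with contigs of at most 400 nt. Another alternative, chosen after seeing the data, set the limit of 400 nt in somas, BAT cells and cardiomyocytes but not in dendrites. The ratio of dendrites to somas then turned to 0.672 in mouse and 3.74 in rat. In mouse somas it removed no reads of the 8 genes, so the turn there comes from the lower total of the list. Under either form of the limit an intron kept its full count if any of its contigs was short enough. Among single genes, the ratio of Pik3r1 between mouse dendrites and somas turned to 0.601 without the most read intron of each list. The intron left out of dendrites held 155 of its 159 reads. With contigs of at most 400 nt in every list the ratio of BAT cells to cardiomyocytes crossed 1 for Igf1r (0.527), and the ratio of dendrites to somas for Pik3cb (0.945, and 0.961 against totals without the 100 most read introns). Pik3cb kept its 228 and 122 reads in both settings, so only the list totals moved its ratio. The interval of that ratio, 0.898 to 1.41, already held 1. Counting tracts inside the contig raised the share of contigs with a tract to 29.2%. When contigs of different lists had only to lie within 500 nt of each other, 8 introns were counted in place of the 5 with shared bases. The cause of these moves was not tested beyond what each setting leaves out or adds. With 4 or fewer reads, as for Akt1, depth limits what the lists can show.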
